A study of Mus musculus with 47 samples.

Results

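The nuclear-encoded subunits of mitochondrial complex I were followed as a set of 35 genes fixed by name, from the 56748 genes of the deposited count table, and not chosen by their values. All 35 had enough reads to be tested in every comparison. Complex I (NADH:ubiquinone oxidoreductase) takes electrons from NADH in its matrix arm, hands them through a flavin and a chain of iron-sulfur clusters to ubiquinone, and pumps protons through its membrane arm. The hydrophobic core of the membrane arm is encoded by mitochondrial DNA (mtDNA), whereas the genes described here lie in the nucleus, and their proteins are made in the cytosol, imported and joined to the mtDNA-encoded core by dedicated assembly factors. A complex I gene of the mtDNA, Mt-Nd5, is the gene that was edited in these cells.

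Of 47 RNA-seq samples, 26 could be matched to a column of the count table and are described here. The cells are B78-D14, an amelanotic mouse melanoma line derived from B16 that lacks Cdkn2a. Mt-Nd5 was truncated at m.12,436 or m.11,944 by a mitochondrial cytosine base editor delivered in 1 or several transfections, and the percentage in a group's name is the share of mtDNA copies that carry the change. The cultured groups were 4 m.11,944 60% cultures and 4 control cultures. The tumor groups were 7 m.12,436 60%, 7 m.12,436 40% and 4 control tumors, taken as fragments of subcutaneous allografts at a size endpoint from male C57BL/6 mice, whose age is given as about 8 weeks in one place and as 10 to 16 weeks in another. Control samples are labelled with the genotype WT and all samples with no treatment. The edited lines are populations and not clones, and each mutation and heteroplasmy is represented by 1 line, so that a difference between groups cannot be told apart from a difference between lines. The study calls the tumors of its bulk RNA-seq individual tumors, with numbers per genotype that differ from those here. The study gives biological and technical replicates as its general practice. For these cultures it does not say whether same-group samples were grown separately. Their p values then measure only the spread between these samples. Between 25249060 and 36173502 reads per culture and between 16475735 and 31218475 reads per tumor were counted on genes. Values are given as CPM, read counts scaled to a common library size by TMM, edgeR's trimmed mean method. Leukocyte transcripts were nearly absent from the cultures, with a summed level of 5 markers of at most 0.569 CPM, against 359.8 to 765 CPM in the tumors. Melanocyte pigment genes were at or near 0 in most libraries, with Tyr at 1 read or none in all 26, and of 7 melanocyte lineage markers only Mitf was above 1 CPM in every library. Control tumor 3 stood apart in these markers, with a sum of 61.7 CPM against 14.1 to 26.2 CPM in the other tumors.

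The promoters of the subunit genes, which the list rule did not select on sequence, were searched for 5 short motifs. None of these was present in most of the promoters. RefSeq promoter windows of GRCm38.p6, from 250 bases before to 50 bases after the start, were at hand for 32 of the 35 genes. The motif AAGATGGC, a form of the site of the transcription factor YY1, was present on either strand in 7 of these 32, or 21.9%, against 3.19% of all 27025 genes with a window. In all 7 it lay on the gene's own strand and within the 50 bases after the start. The windows around it are given with the motif in capitals.
Ndufs4, chr13:114388045-114388071, minus strand: tttgcctacaggAAGATGGCggcggtc
Ndufs6, chr13:73328433-73328461, minus strand: agggtcaccggcAAGATGGCggcggtgct
Ndufs7, chr10:80249461-80249492, plus strand: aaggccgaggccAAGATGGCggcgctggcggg
Ndufa3, chr7:3617383-3617414, plus strand: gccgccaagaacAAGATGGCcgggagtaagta
Ndufa9, chr6:126849096-126849127, minus strand: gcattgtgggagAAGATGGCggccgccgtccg
Ndufc1, chr3:51408914-51408945, minus strand: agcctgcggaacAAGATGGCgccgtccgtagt
Ndufb8, chr19:44555393-44555416, minus strand: gcggagaaggtgAAGATGGCtgcc
None of the 5 motifs searched, on both strands, contains another. The NRF1 motif GCATGCGC was found in 3 member promoters (9.38% against 3.05%), the ETS motif CCGGAAG in 4 (12.5% against 9.93%), the SP1 motif GGGCGG in 15 (46.9% against 38.2%) and CCAAT in 10 (31.2% against 41.1%). A match describes the letters and not a bound site.

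**Figure D1:**
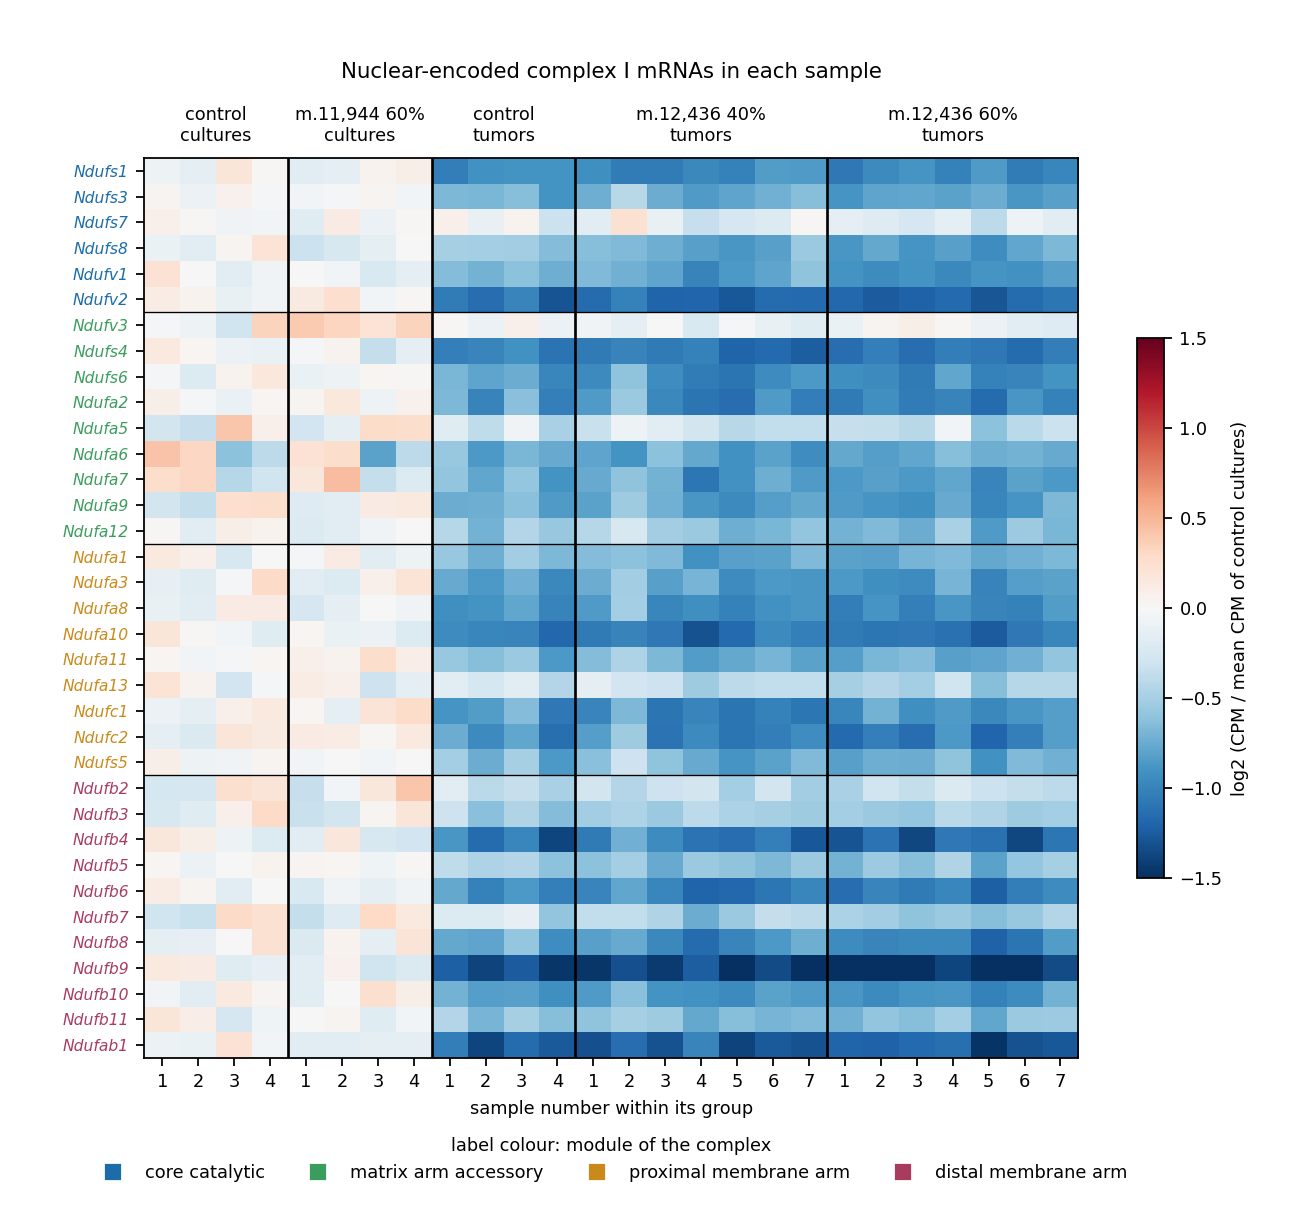
Heat map of each of the 35 nuclear-encoded complex I subunits in each of the 26 samples, as the log2 ratio of its CPM to its mean in the 4 control cultures (colour, with the scale ending at −1.5 and 1.5), with genes in rows by place in the complex and samples in columns by group and number. The 8 cultures lie above the 18 tumors for most genes, and cultures 1 and 2 differ from cultures 3 and 4 within both lines.

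The order of abundance was much the same in all 5 groups, with Spearman's rho of 0.944 to 0.997 between pairs of groups across the 35 genes, which share their libraries and are not independent. Levels of different genes can be compared only per length, and the order then depends on the length used. Per kb of all annotated exons, Ndufa2, a small thioredoxin-fold subunit of the matrix arm, was highest with 132 ± 7.47 CPM per kb in control cells (SD, n = 4), followed by the distal membrane arm subunit Ndufb10 at 83.03 ± 7.29. The lowest were the small membrane arm subunits Ndufb2 at 2.03 ± 0.382 and Ndufc1 at 4.41 ± 0.420 CPM per kb. The matrix arm subunit Ndufs4 followed at 5.48 ± 0.445, and on this scale the same 3 highest (with Ndufa1) and 3 lowest genes held in all 5 groups. Per kb of the canonical transcript, Ndufa8 (157 ± 16.4), Ndufa7 (156 ± 40.3) and Ndufb8 (151 ± 18.2) lay above Ndufa2 (139.8 ± 7.90) and Ndufb10 (138.8 ± 12.2 CPM per kb), whose spreads overlap, and Ndufc1, at 21.3 ± 2.03, was no longer among the 3 lowest, while Ndufb2 (5.31 ± 0.998) and Ndufs4 (13.2 ± 1.07) still were. In control cells the 4 Ndufa2 values were 86.6, 79.7, 75.96 and 83.3 CPM and the 4 Ndufb10 values 99.00, 90.98, 112 and 104 CPM. The 4 Ndufb2 values were 19.4, 19.6, 27.4 and 26.7 CPM, and those of Ndufc1 were 24.997, 24.04, 27.98 and 29.5 CPM. Neighbours in the order often did not differ beyond their spread, as per kb of all exons with Ndufs6 (13.98 ± 1.44) and Ndufa11 (14.01 ± 0.359 CPM per kb).

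In cultured cells, no subunit was called between m.11,944 60% and control cells at an adjusted p under 0.1 in edgeR's quasi-likelihood test, where 0.0387% of 12930 genes were. At an unadjusted p under 0.05 there was 1 member and 533 of all genes, and limma-voom and DESeq2 called 0. The members were split evenly, with 18 higher and 17 lower in the edited cells, and their median log2 fold change was 0.00077 against −0.0041 over all genes. When 1 culture was left out, 14 to 23 were lower and the median ran from −0.021 to 0.019. Standard errors ran from 0.082 (Ndufs3) to 0.31 (Ndufa6) on the log2 scale. The summed level of the 35 was 2815 ± 79.5 CPM in m.11,944 60% cells and 2878 ± 81.0 CPM in control cells (SD, n = 4 each).

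The subunit with the smallest p was Ndufv3, an accessory subunit at the NADH-binding tip of the matrix arm. It measured 45.4, 43.5, 37.3 and 57.9 CPM in control cultures 1 to 4 and 60.6, 57.5, 52.96 and 58.2 CPM in m.11,944 60% cultures 1 to 4. All edited cultures were above control cultures 1, 2 and 3, but control culture 4 lay within their range. The log2 fold change was 0.34 (SE 0.15, adjusted p = 1.00, edgeR). Same-numbered cultures of both lines deviated together, and in the fit with the culture number as a block Ndufv3 rose by 0.36 (SE 0.094, adjusted p = 0.0762) and was the only member called, where 7.08% of all genes were called. The second smallest p was that of Ndufa11, a membrane arm subunit. Its control cultures measured 53.4, 50.8, 51.4 and 53.3 CPM and its edited cultures 54.8, 54.4, 62.8 and 56.1 CPM. The groups did not overlap, yet the log2 fold change of 0.15 (SE 0.090, adjusted p = 1.00) was not called. Ndufab1, the mitochondrial acyl carrier protein, was the other member without overlap, with 79.1, 78.8, 97.9 and 81.8 CPM in control and 75.2, 75.1, 76.7 and 76.8 CPM in edited cultures, and was not called either (log2 fold change −0.12, adjusted p = 1.00). Over all genes tested, 1.27% were higher and 2.26% lower without overlap in the edited cells.

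The cultures also differed within each line. For 30 of the 35 subunits the mean of cultures 1 and 2 differed from that of cultures 3 and 4 in the same direction in both lines, and for 24 of them without overlap in either line, 10 being higher and 14 lower in cultures 1 and 2. This was near the share over all 12930 genes tested, of which 86.3% went the same way in both lines and 61.8% split without overlap (30.8% higher and 31% lower). Ndufa6, an accessory subunit that binds the acyl carrier protein, measured 103, 94.8, 49.97 and 58.1 CPM in control cultures 1 to 4 and 88.6, 91.98, 43.7 and 58.4 CPM in the edited ones. Cultures 1 and 2 were above cultures 3 and 4 by 0.88 and 0.84 on the log2 scale. Ndufa7 of the matrix arm went the same way (0.65 and 0.60). Ndufb7, a distal membrane arm subunit, went the other way, with 50.9, 49.7, 76.4 and 73.2 CPM in control and 48.9, 54.9, 76.8 and 69.4 CPM in edited cultures. Its differences were −0.57 and −0.50, and those of the matrix arm subunit Ndufa5 were −0.56 and −0.49. The labels do not say what the culture numbers mark, and the split was seen in the data and not tested. Read pair by pair, the edited culture was above its same-numbered control for 7, 25, 13 and 14 of the 35 subunits in pairs 1 to 4. In all 4 pairs 4 members were higher in the edited culture (Ndufv2, Ndufv3, Ndufa11 and Ndufc1) and 6 lower (Ndufs8, Ndufv1, Ndufa10, Ndufb3, Ndufb9 and Ndufab1), or 11.4% and 17.1% of the members, against 11.6% and 17.6% of all genes tested. The log2 ratios in pairs 1 to 4 were 0.42, 0.40, 0.51 and 0.0077 for Ndufv3 and −0.22, −0.067, −0.18 and −0.20 for Ndufs8. Those of Ndufv1 were −0.21, −0.028, −0.053 and −0.090.

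**Figure D2:**
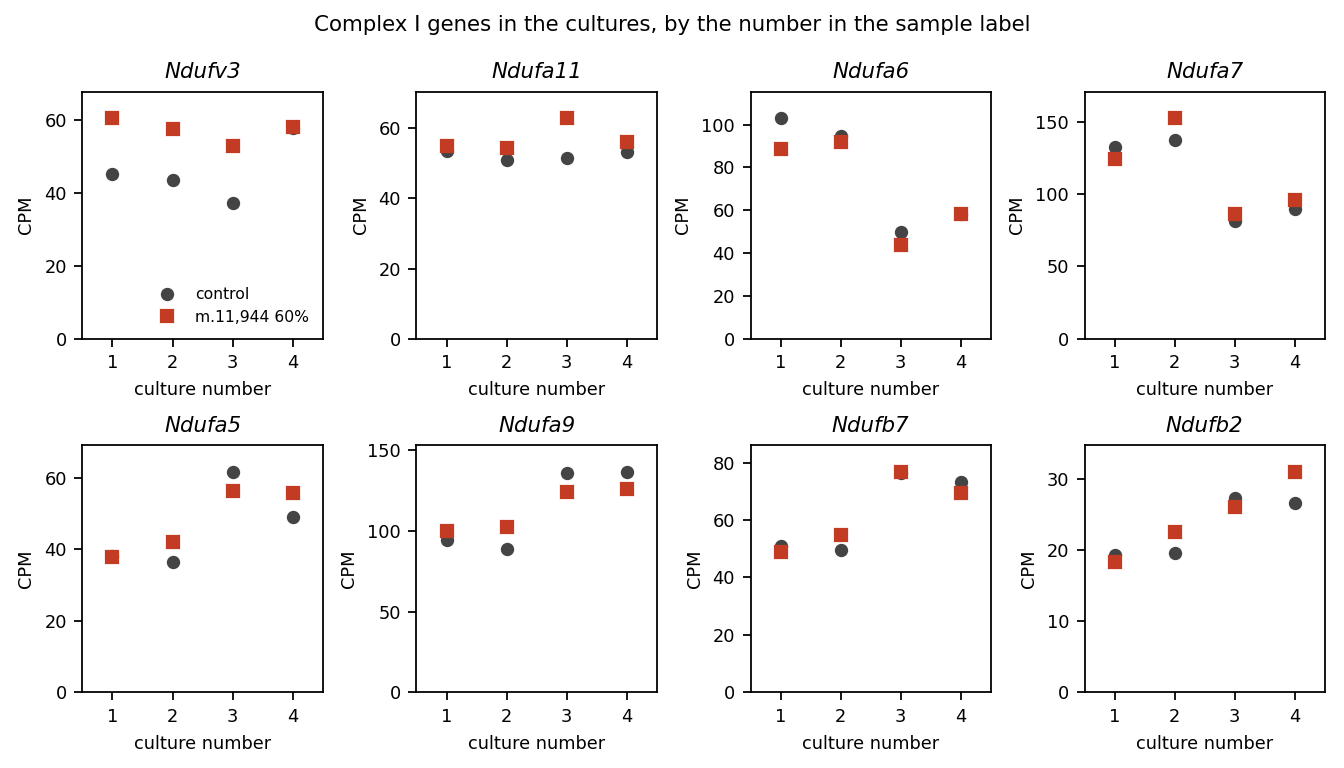
Level in CPM of 8 nuclear-encoded complex I subunits in each culture, by culture number, with control cells as circles and m.11,944 60% cells as squares, each point being 1 culture. Ndufa6 and Ndufa7 are higher in cultures 1 and 2 and Ndufa5, Ndufa9, Ndufb7 and Ndufb2 lower in both lines, while Ndufv3 lies higher in the edited line except at culture 4, where both are near 58 CPM.

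In tumors, the subunits were slightly lower with m.12,436 60% than in control tumors: 34 of 35 had a log2 fold change below 0, with a median of −0.094 against −0.0025 over all 16213 genes tested, of which 50.6% were below 0. Without control tumor 3 the members' median was −0.059 with 29 below 0, and without control tumor 4 it was −0.15 with 35 below 0. At an adjusted p under 0.1 in edgeR's test, 2 members fell and none rose, Ndufs8 and Ndufv1, both core subunits of the electron path, where 1.34% of all genes were called lower. At an unadjusted p under 0.05, 6 members were lower, against 8.31% of all genes, and the other 4 were Ndufb7, Ndufb8, Ndufa13 and Ndufb9. The summed level of the 35 was 1618 ± 64.9 CPM in m.12,436 60% tumors (SD, n = 7) and 1756 ± 126 CPM in control tumors (SD, n = 4), and their ranges overlapped. Tumors are mixtures of cells, and fewer cells of a type cannot be told apart from less RNA per cell.

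Ndufs8 carries iron-sulfur clusters on the way to ubiquinone. It measured 64.4, 63.7, 63.5 and 58.01 CPM in control tumors 1 to 4. In m.12,436 60% tumors it had a low of 47.7, a median of 51.7 and a high of 56.9 CPM. Every m.12,436 60% tumor was below every control tumor, and the closest pair was 60% tumor 7 and control tumor 4. The means were 51.6 ± 3.11 and 62.4 ± 2.95 CPM (SD, n = 7 and 4), a 1.21-fold lower level with a log2 fold change of −0.27 (SE 0.063, 95% interval −0.41 to −0.14, adjusted p = 0.0414, edgeR).

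Ndufv1 holds the flavin and the NADH-binding site, where electrons enter the complex. It measured 112, 107, 114 and 105 CPM in control tumors 1 to 4. In m.12,436 60% tumors it had a low of 89.6, a median of 93.6 and a high of 99.1 CPM. Here too the groups did not overlap. The log2 fold change was −0.23 (SE 0.061, 95% interval −0.36 to −0.10, adjusted p = 0.0748, edgeR), or a 1.17-fold lower level. Over all genes tested, 2.78% were lower without overlap between these groups.

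Both calls depended on single control tumors. Without control tumor 1 no member was called (Ndufs8 adjusted p = 0.142, Ndufv1 0.210), nor without control tumor 3 (0.201 and 0.330). The fold changes were then −0.26 and −0.22, and −0.25 and −0.20. By contrast, without control tumor 4, which was the lowest of the control tumors for 28 of the 35 members, 5 were called: Ndufs8, Ndufv1, Ndufb7, Ndufb8 and Ndufa13. Leaving out 60% tumor 1, 2, 3 or 4 left only Ndufs8. Of all genes, 374 were called with every tumor, 125 without control tumor 1, 66 without control tumor 3 and 657 without control tumor 4. Without 60% tumor 1, 2, 3 or 4, between 186 and 264 genes were called. Leukocyte markers moved with the comparison: the summed level of all 5 (Ptprc, Cd53, Laptm5, Coro1a and Cd52, none at 0 in any tumor) ran from 429.9 to 765 CPM in m.12,436 60% tumors and from 359.8 to 539.6 CPM in control tumors, a difference of 0.41 on the log2 scale (two-sided exact permutation test, p = 0.0424, Benjamini-Hochberg adjusted over 6 marker comparisons 0.0932). With that sum as a covariate, chosen after seeing the data, no member and 44 of all genes were called. The fold changes were then −0.31 for Ndufs8 and −0.20 for Ndufv1. With the skeletal muscle marker sum as a covariate, both remained called. Over all alternatives the adjusted p ran from 0.00427 to 0.201 for Ndufs8 and from 0.0154 to 0.345 for Ndufv1.

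The subunits next in line were in the membrane arm. Ndufb8, a distal membrane arm subunit whose protein is often blotted as a marker of assembled complex I, measured 60.5, 59.5, 69.2 and 54.2 CPM in control tumors 1 to 4. In m.12,436 60% tumors it had a low of 44.5, a median of 52.6 and a high of 57.7 CPM. The groups overlapped and the log2 fold change of −0.24 (SE 0.083) had an adjusted p of 0.159. Ndufb7 measured 54.1, 54.1, 57.4 and 41.4 CPM in control tumors 1 to 4, of which the fourth lay within the 60% range of 40.3 to 45.96 CPM. Its log2 fold change was −0.27 (SE 0.083, adjusted p = 0.127, edgeR), and it was called by DESeq2 and when only the groups compared were fitted. Ndufa13, a membrane arm subunit also known as GRIM-19, measured 79.9, 75.05, 80.01 and 66.3 CPM in control tumors 1 to 4. In 60% tumors it had a low of 58.00, a median of 66.5 and a high of 73.5 CPM (log2 fold change −0.20, SE 0.072, adjusted p = 0.174). Ndufb9, of the distal membrane arm, had a log2 fold change of −0.18 (SE 0.069, adjusted p = 0.192). The rest of the 34 lay between −0.19 (Ndufa2) and −0.0002 (Ndufb3), and Ndufb2 alone was not below 0 (0.0004).

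**Figure D3:**
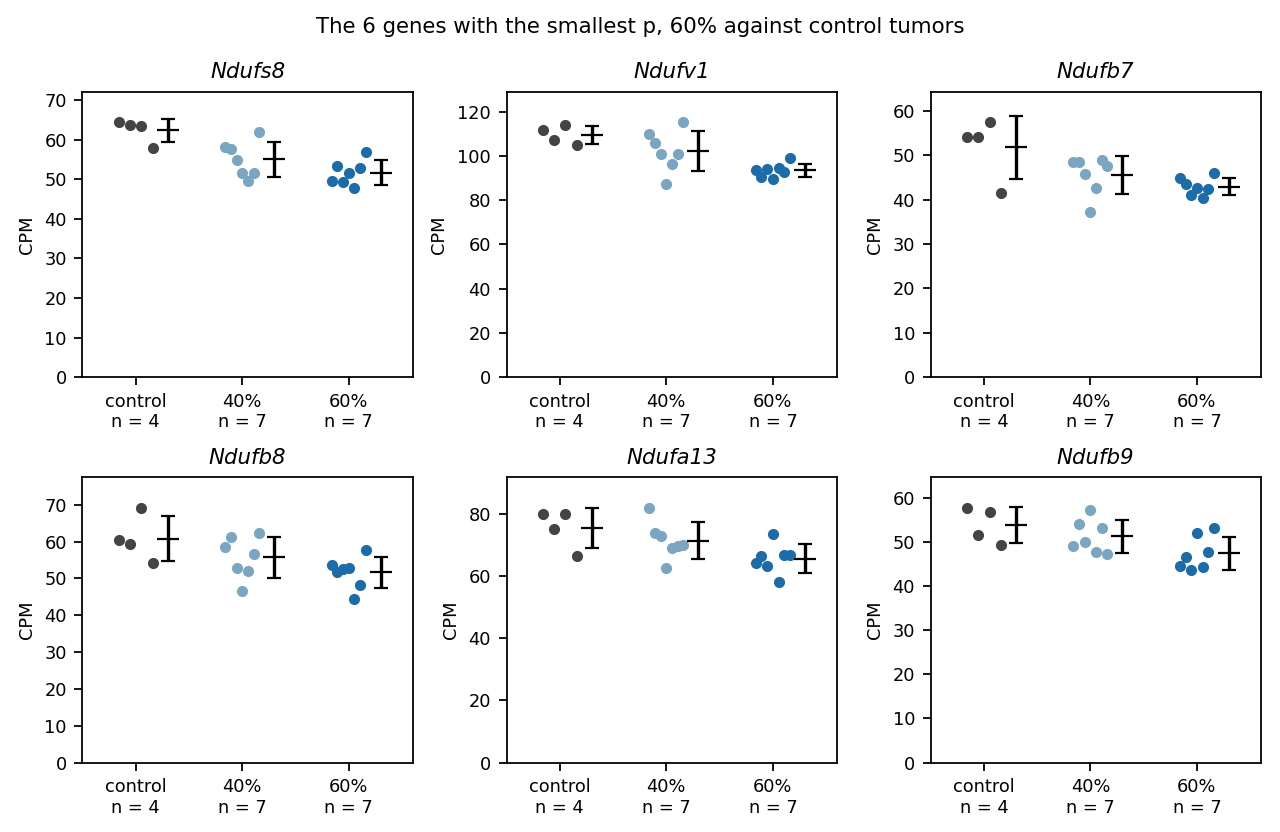
Level in CPM of the 6 subunits with an unadjusted p under 0.05 in each control, m.12,436 40% and m.12,436 60% tumor. Points are single tumors, and the bars beside them show the mean and SD of each group. For Ndufs8 and Ndufv1 all 7 m.12,436 60% tumors lie below all 4 control tumors, and for the other 4 subunits the groups overlap.

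Grouped by place in the complex, the median log2 fold changes were −0.11 for 6 core subunits of the matrix arm, −0.11 for 9 matrix arm accessory subunits, −0.074 for 9 proximal and −0.11 for 11 distal membrane arm subunits. The called pair belonged to the core, and the 4 other members under an unadjusted p of 0.05 to the membrane arm. Set against the median of all tested genes on its own chromosome, 34 of the 35 had the lower fold change, with a median difference of −0.10 on the log2 scale. Read tumor by tumor against the control mean, m.12,436 60% tumors had between 19 and 34 members below it (median 31). Control tumors, each set against the mean of the other control tumors, had between 1 and 34 below. Control tumors 1 and 3 were the highest control for 16 and 19 members. Control tumor 4 was below the mean of the other control tumors for 34, the highest number among the m.12,436 60% tumors as well.

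Ndufs8 and Ndufv1 are neighbours, both on the minus strand of chromosome 19. In the GRCm39 annotation Ndufs8 (ENSMUSG00000059734) spans chr19:3958862-3962948 and Ndufv1 (ENSMUSG00000037916) chr19:4057384-4062814, 94.4 kb apart. Chromosome 19 had the lowest median log2 fold change of the 20 chromosomes with at least 100 genes tested in this comparison, −0.079, and both genes were below it. Neither shares a stretch of at least 75 bases with another place in the genome nor overlaps another gene's exons, which held for 9 of the 35 members. Their RefSeq promoter windows, in GRCm38.p6 coordinates, differ in the motifs searched. Ndufs8 has CCAAT 3 times upstream of the start and the ETS motif, on the opposite strand as CTTCCGG, just after it, both in capitals below, whereas none of the 5 motifs is in the Ndufv1 window, which is printed in lower case.
Ndufs8, chr19:3912725-3913024, minus strand: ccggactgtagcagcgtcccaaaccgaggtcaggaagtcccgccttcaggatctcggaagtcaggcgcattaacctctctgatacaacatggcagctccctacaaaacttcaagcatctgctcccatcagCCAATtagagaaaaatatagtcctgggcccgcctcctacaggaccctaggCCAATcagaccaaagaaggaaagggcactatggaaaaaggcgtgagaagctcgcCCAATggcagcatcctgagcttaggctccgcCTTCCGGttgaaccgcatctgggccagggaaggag
Ndufv1, chr19:4012706-4013005, minus strand: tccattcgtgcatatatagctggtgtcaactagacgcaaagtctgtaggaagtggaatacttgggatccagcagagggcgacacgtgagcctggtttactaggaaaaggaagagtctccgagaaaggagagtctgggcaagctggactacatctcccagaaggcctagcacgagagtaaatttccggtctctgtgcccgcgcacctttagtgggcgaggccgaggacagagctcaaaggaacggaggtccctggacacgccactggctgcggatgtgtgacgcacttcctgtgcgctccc

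**Figure D4:**
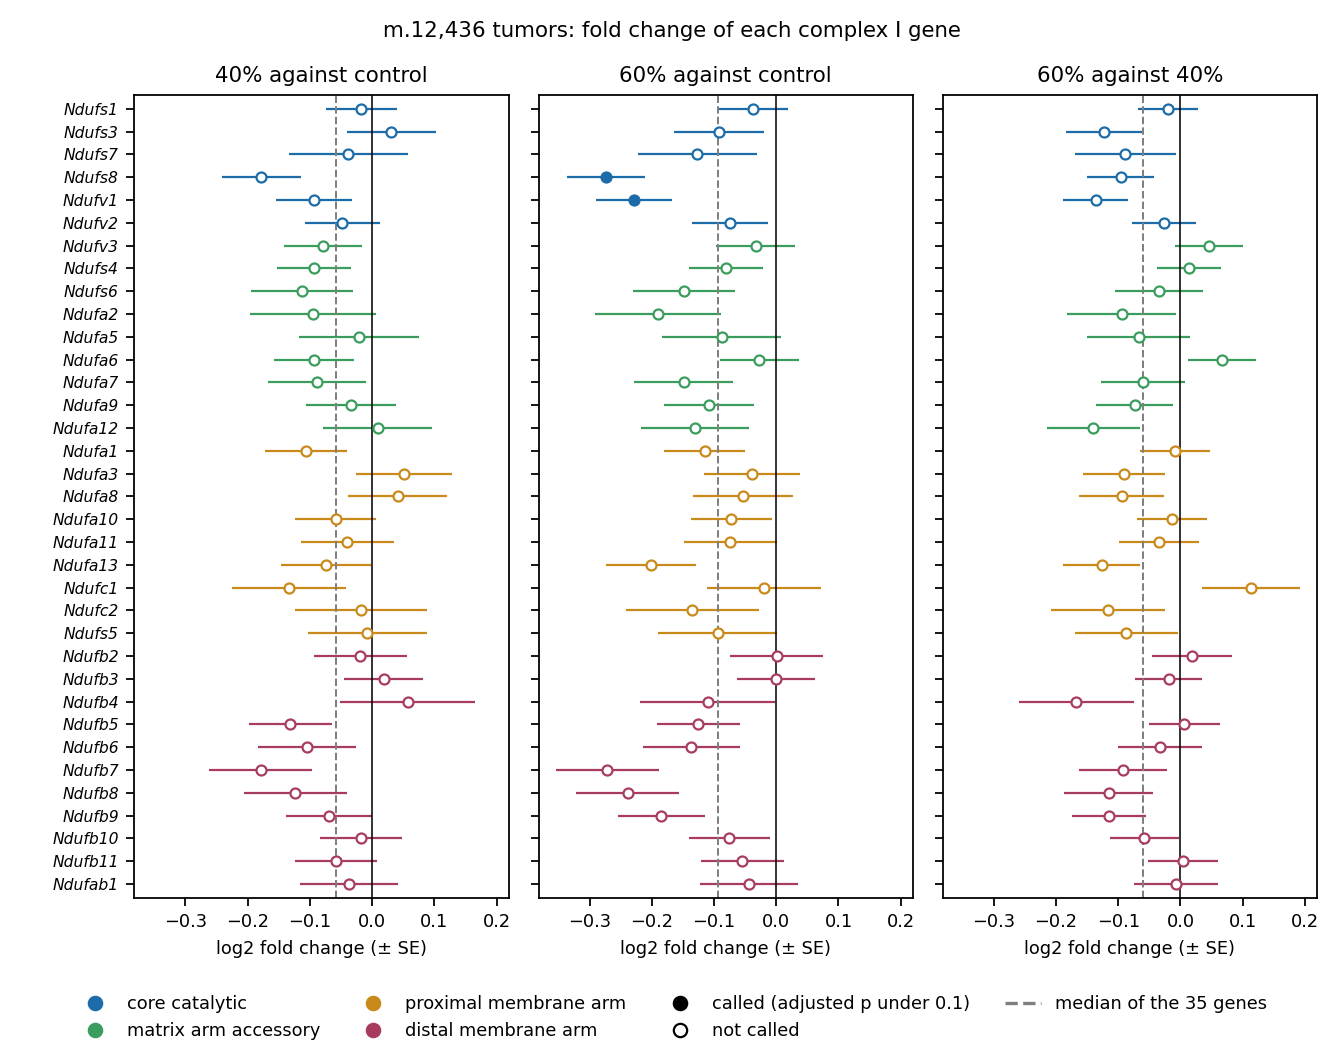
Log2 fold change with its SE from edgeR of each of the 35 subunits, coloured by place in the complex, for m.12,436 40% against control, 60% against control and 60% against 40% tumors, with a dashed line at the members' median and filled points where a gene was called. Most points lie just below 0, and Ndufs8 and Ndufv1 in the 60% against control panel are the only filled ones.

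In m.12,436 40% tumors no member was called, nor any other gene (0% of 16213, edgeR), while 825 genes and 2 members had an unadjusted p under 0.05 and DESeq2 called 5 genes, none of them a member. Below 0 were 29 members, with a median of −0.058 against 0.0043 over all genes. This moved with single tumors: the median was −0.013 with 21 below 0 without control tumor 3, −0.036 with 22 without control tumor 1, −0.039 with 27 without 40% tumor 4 and −0.10 with 33 without control tumor 4. The 2 smallest p were those of Ndufs8, with a low of 49.6, a median of 54.8 and a high of 61.9 CPM (log2 fold change −0.18, SE 0.063, adjusted p = 0.924), and of Ndufb7, with a low of 37.2, a median of 47.5 and a high of 48.98 CPM (−0.18, SE 0.083, adjusted p = 0.924). The same 4 control tumors serve both heteroplasmies, so these fold changes are not independent of each other. Side by side, the fold changes at 60% and 40% were −0.27 and −0.18 for Ndufs8, −0.23 and −0.093 for Ndufv1, −0.24 and −0.12 for Ndufb8 and −0.20 and −0.074 for Ndufa13. These were picked for a small p at 60%. For 7 members the fold change at 60% was the less negative one, as for Ndufc1 (−0.019 and −0.13), Ndufa6 (−0.027 and −0.093) and Ndufv3 (−0.033 and −0.079).

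Between m.12,436 60% and 40% tumors themselves, no member was called, where 1.81% of all genes were, while 1 member and 2285 of all genes had an unadjusted p under 0.05. DESeq2 and limma-voom also called no member. Below 0 were 28 members, with a median over all 35 of −0.061, against 51.1% of all genes with a median of −0.0036. Without 40% tumor 2 the median was −0.023 with 21 below 0. Ndufv1 had the smallest p, with a low of 87.4, a median of 101 and a high of 115 CPM in 40% tumors, above most but not all of the 60% tumors (log2 fold change −0.14, SE 0.052, adjusted p = 0.236). Next was Ndufa13 with a low of 62.5, a median of 69.8 and a high of 81.9 CPM in 40% tumors (−0.13, SE 0.062, adjusted p = 0.365). Without 40% tumor 4, Ndufv1 was called, where 452 of all genes were. Markers of skeletal muscle and of leukocytes moved with this comparison. The muscle sum of 13 markers was 56.7 to 391.2 CPM in 40% tumors and 6.85 to 427 CPM in 60% tumors (log2 difference −2.35 for 60% minus 40%, exact permutation p = 0.0466, adjusted 0.0932), with Myh2 and Myh4 at 0 in 4 of the 7 m.12,436 60% tumors. The leukocyte sum was 375.6 to 506 CPM in 40% tumors (log2 difference 0.33, exact permutation p = 0.0227, adjusted 0.0932). With either sum as a covariate, no member was called.

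Control tumors were also compared with the control cells in culture. Of the 35 subunits, 29 fell and none rose, where 29.9% of 15047 genes fell and 35.3% rose, and the members' median log2 fold change was −0.69 against 0.038 over all genes. For 28 members every control tumor was below every control culture, which held for 25.6% of all genes. The summed level was 1756 ± 126 CPM in control tumors and 2878 ± 81.0 CPM in control cells (SD, n = 4 each). In tumors this includes the host cells seen in the marker sums above, so that a change of mixture cannot be told apart from a change in the melanoma cells. Cultures were also stored as cell pellets and tumors as fragments in RNAlater. Kind of sample, storage and any run difference go together here and cannot be told apart.

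Ndufb9 had the smallest p, with 149.6, 147, 119.4 and 124 CPM in control cultures and 57.7, 51.6, 56.7 and 49.3 CPM in control tumors, 2.46-fold lower (log2 fold change −1.30, SE 0.12, edgeR). Of its exon bases 32.04% overlap other genes, and how reads there were counted is not given. Ndufv2, the core subunit beside the flavin that holds an iron-sulfur cluster, measured 141, 135, 121 and 126 CPM in cultures and 62.9, 59.2, 65.96 and 53.2 CPM in tumors, 2.12-fold lower. Ndufs1, the largest core subunit of the matrix arm, measured 142, 134, 169 and 150.4 and 72.8, 79.3, 80.1 and 79.9 CPM, 1.87-fold lower. In these 3 genes the lowest culture lay well above the highest tumor.

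Ndufs4, an accessory subunit whose loss in patients causes Leigh syndrome, measured 59.2, 54.7, 50.5 and 49.8 CPM in cultures and 26.3, 26.9, 28.4 and 24.9 CPM in tumors, 1.97-fold lower. Ndufa10, a membrane arm subunit that faces the matrix, measured 176, 158, 151 and 137 and 80.8, 78.6, 78.5 and 68.6 CPM, 1.98-fold lower. Ndufab1 measured 79.1, 78.8, 97.9 and 81.8 and 41.01, 32.5, 38.1 and 35.1 CPM, 2.25-fold lower, but 53.6% of its transcript is repeated elsewhere in the genome. Its level is therefore uncertain, as are those of Ndufs5 (86.5% repeated), Ndufb4, Ndufs3, Ndufb11 and Ndufa12 (30.1% to 44.3%). By place in the complex, 5 of 6 core, 7 of 9 matrix arm accessory, 8 of 9 proximal and 9 of 11 distal membrane arm subunits fell. Past the 6 with the smallest p, Ndufb4 had the largest fold change (−1.06) and Ndufb5 the smallest (−0.44) of those called.

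The 6 members that were not called came from matrix and membrane arm alike. Ndufs7, the core subunit that holds the last iron-sulfur cluster before ubiquinone, measured 97.3, 93.1, 88.4 and 89.2 CPM in control cultures and 97.1, 85.3, 95.7 and 73.5 CPM in control tumors (log2 fold change −0.03, SE 0.11). Gamt overlaps 49.4% of its exon bases on the opposite strand, and whether reads were counted by strand is unknown. The same holds for Ndufa3, Ndufb11, Ndufa6 and, in part, Ndufa13 and Ndufb9, whose exons other genes overlap by 25.6% to 67.8%. Ndufv3 had 46.4, 43.2, 48.4 and 43.3 CPM in control tumors, inside its range in control cultures (0.01, SE 0.14). The others were Ndufa5 (−0.23), Ndufa13 (−0.23), Ndufb7 (−0.24) and Ndufb2 (−0.32).

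**Figure D5:**
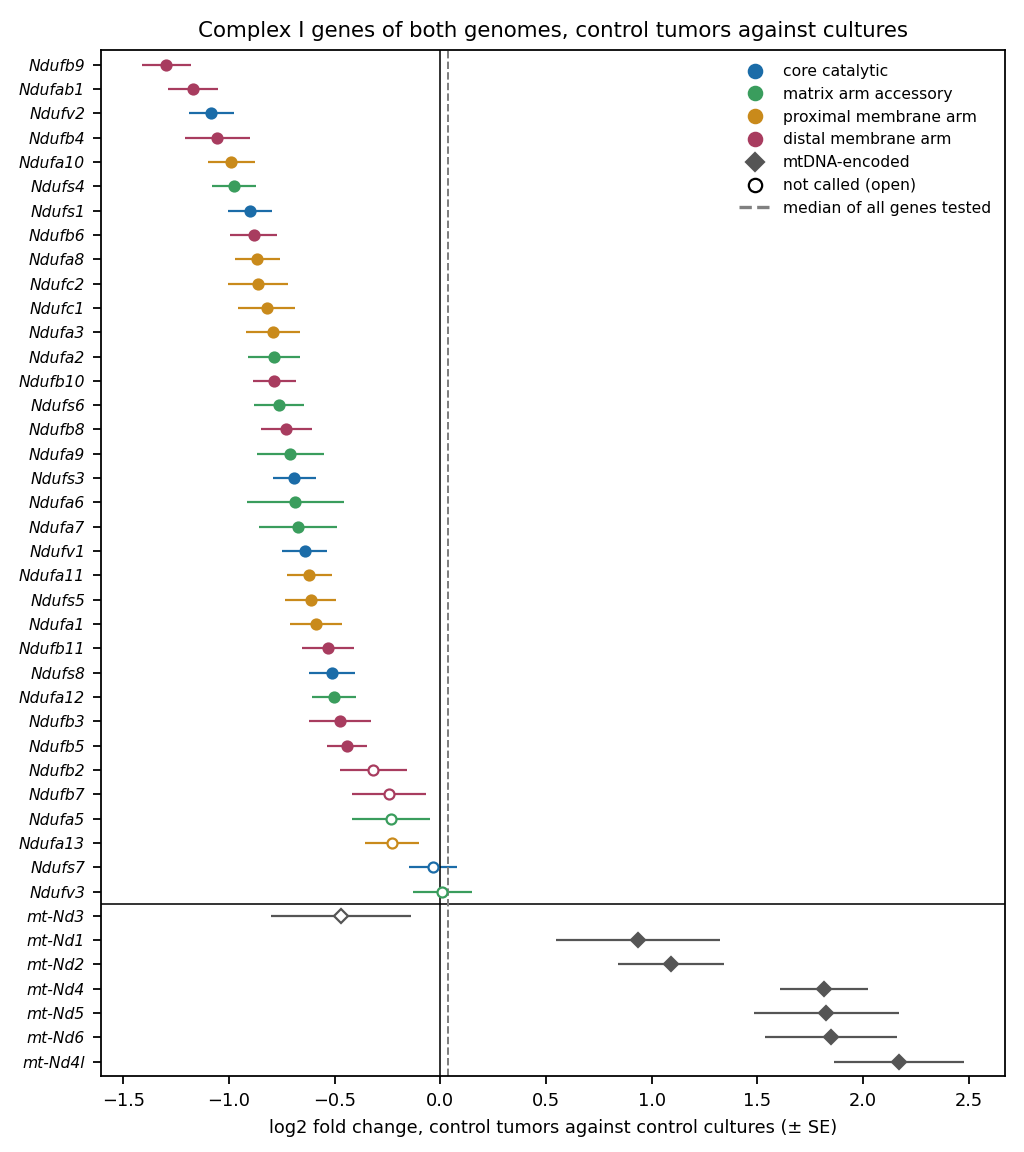
Log2 fold change with its SE from edgeR of the 35 nuclear-encoded and 7 mtDNA-encoded complex I subunits in control tumors against control cultures, 4 samples each, with open symbols for genes that were not called and a dashed line at the median of all genes tested. The nuclear-encoded subunits run from −1.30 (Ndufb9) to 0.01 (Ndufv3), while 6 of the 7 mtDNA-encoded ones lie above 0.

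Other genes of the pathway were set beside the members from fixed lists. Of 35 nuclear-encoded subunits of complexes II to V, 31 fell in control tumors against control cells and none rose, with a median log2 fold change of −0.73. Atp5f1c, a subunit of the ATP synthase, fell by 1.37 and Uqcrfs1, the iron-sulfur protein of complex III, by 1.04. Of 17 tested complex I assembly factors 13 fell, such as Nubpl (−1.53), which delivers iron-sulfur clusters, and 1 rose, Dmac2 (0.61). Of 8 tested regulators of mitochondrial biogenesis 5 fell, such as Nrf1 (−0.86) and the mtDNA-packaging factor Tfam (−0.80), and Ppargc1b, a transcriptional coactivator, rose by 0.93 from a low level. The mtDNA-encoded partners went the other way: 6 of 7 rose, with a median of 1.82. Transcripts of mt-Nd5 measured 157, 189, 492 and 258 CPM in control cultures and 811, 1163, 796 and 1029 CPM in control tumors (log2 fold change 1.83, SE 0.34), without overlap. Only mt-Nd3, near 1 CPM, was not called (−0.47).

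In m.12,436 60% against control tumors, of the complex II to V subunits 1 was called, Cox8a of cytochrome c oxidase, which fell by 0.27 (adjusted p = 0.0614), 33 of 35 were below 0 with a median of −0.14, and 11 had an unadjusted p under 0.05. It measured 199, 160.4, 193 and 171 CPM in control tumors 1 to 4, and in m.12,436 60% tumors it had a low of 133, a median of 152 and a high of 160.2 CPM, without overlap. No assembly factor, mtDNA-encoded subunit or regulator was called by edgeR, and at an unadjusted p under 0.05 there were 2, 1 and 0 of them. The smallest unadjusted p in these lists were 0.0181 for the assembly factor Dmac1 (−0.24), 0.0419 for mt-Nd1 (−0.16) and 0.121 for the coactivator Pprc1 (−0.11). The edited mt-Nd5 had a low of 928, a median of 1062 and a high of 1208 CPM in m.12,436 60% tumors, overlapping control tumors (log2 fold change 0.16, SE 0.12). In cultured cells the mtDNA-encoded subunits were all above control, with a median of 0.26, but none was called or had an unadjusted p under 0.05, and 3 of 7 were called higher with the culture number as a block.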

How the data were processed

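Bulk RNA-seq was read from 1 table of counts per gene. The authors aligned reads to GRCm39 with STAR, counted them with featureCounts on Ensembl genes and deposited raw counts without normalization. Whether strand or multiply mapped reads were considered is not given in the sources used here. Of 47 columns, 26 could be matched to a sample and 21 were not used. Repeats and overlaps were searched in GRCm39 with words of 32 bases.

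Counts were tested with edgeR 4.0.16 in R 4.3.3 (TMM, filterByExpr, robust quasi-likelihood), separately for cultures, for all 18 tumors and for control tumors with control cells. Two-sided p values were adjusted by Benjamini-Hochberg over all tested genes, and a gene was called at an adjusted p under 0.1, the study's threshold. Printed CPM are scaled over all 26 libraries, and fold changes come from each fit, which shifts them against ratios of printed means by 0.028 in cells, 0.031 in tumors against cells and by −0.0044 to 0.0034 between tumors (log2 medians). Same-numbered cultures deviated together (r 0.759 to 0.857 across genes), so the block was reported for them. Alternatives were limma-voom (limma 3.58.1), DESeq2 1.42.0, other filters and samples. The edgeR, limma-voom and DESeq2 fits were tested on simulated data for each set of samples. The members and lists were chosen with earlier results of these data known. Genes were given sample by sample if called, of smallest p, highest or lowest per length, or Ndufb8.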

Additional observations from a re-analysis of the deposited data

Results flagged for a closer look

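Each of the 35 subunits was checked in each of the 5 groups for a sample far from the others by Dixon's test, 175 checks in all, of which chance would give about 1 in 20. The test picked out 6 values. Control tumor 1 was low for Ndufs1, at 72.82 CPM against 79.3 CPM or more in the other control tumors. Control tumor 4 was low for Ndufs8, at 58.01 CPM against 63.5 to 64.4 CPM. Of the m.12,436 40% tumors, the second was high for Ndufa8, at 94.98 CPM against at most 74.9 CPM, and for Ndufc1, at 16.69 CPM against at most 13.4 CPM, and it was the highest of its group for 22 of the 35 members. In culture, m.11,944 60% culture 3 was low for Ndufb5, at 71.28 CPM against 75.7 to 76.6 CPM, and control culture 3 was high for Ndufab1, at 97.85 CPM against at most 81.8 CPM.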

How the results depend on the processing

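In cells, 0 members were called in 8 fits that each left out 1 culture, by limma-voom, by DESeq2 and with other filters or scaling, 1 with the culture number as a replicate block (Ndufv3) and 5 with cultures 1 and 2 alone (Ndufv2, Ndufv3, Ndufa9 and Ndufc2 higher, Ndufb6 lower), where 5482 genes were called. With cultures 3 and 4 alone, 0 genes were. The block raised the genes called from 5 to 916, DESeq2 to 84 and the term for cultures 1 and 2 against 3 and 4 to 494. The fits on part of the cultures, on that term and on marker sums were chosen after seeing the data.

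For m.12,436 60% against control tumors, the 2 members called became 1 without a filter on low counts, 1 at an adjusted p under 0.05, 0 with the leukocyte sum as a covariate and 0 to 5 when 1 tumor was left out, while 29 to 35 members stayed below 0. Ndufs8 was called in 18 of 21 fits and Ndufv1 in 13. Against 374 genes called, DESeq2 called 1056, the compared groups alone 943, the block 178 and the leukocyte covariate 44. Fits without 1 tumor called 66 to 717 genes. Without 1 tumor, 0 members were called for 40% against control and 0 to 1 for 60% against 40%. For control tumors against cells, 29 to 30 members were called, and the median was −0.57 with at least 10 counts in every sample. No called member changed sign. For Ndufv3 in cells the adjusted p ran from 1.05e-06 (cultures 1 and 2) to 1.00. Tumor numbers did not pair samples (mean r −0.14, −0.014 and 0.0014), and the replicate block changed no other member call.

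Limits: the 4 control tumors, whose summed member level had an SD of 126 CPM, set the precision of both comparisons with them. Each member had at least 222 reads in every sample. The median member's CV between samples was 2.22 (m.12,436 60% tumors) to 5.04 (control cells) times the CV that counting alone gives, and under 2 times for 16 members in m.12,436 60% tumors and 4 to 6 in the other groups.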
